A study of Mus musculus with 10 samples.

Results

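The 9 genes described here encode the vascular endothelial growth factor (VEGF) receptors Kdr, Flt1 and Flt4, the co-receptors Nrp1 and Nrp2, and the ligands Vegfa, Vegfb, Vegfc and Pgf. They were chosen by name, and all 9 were found among the 21868 genes of a table of raw read counts. The RNA came from mouse embryonic stem cells grown into embryoid bodies and sorted for Flk1, the surface protein that Kdr encodes. The labels call the sorted cells equivalents of the hemangioblast, a shared progenitor of blood and endothelium. Cells with both Ldb1 alleles intact (Ldb1+/+, here WT) were compared with cells lacking Ldb1 on both (Ldb1-/-, here KO), in 4 libraries per genotype. Ldb1 is an adaptor that joins LIM-domain proteins and other transcription factors into complexes. Every library was of Flk1+ cells, so Kdr is at once a member and the gene of the sort. The sources used here do not give the day at which embryoid bodies were taken for RNA, the number of clones behind each genotype or the structure of the knockout allele. Each genotype has only its own cells, so loss of Ldb1 cannot be told apart from any other difference between the cell lines.

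Kdr (VEGFR2) is the main signalling receptor for Vegfa and is required for the first blood and endothelial cells of the mouse embryo. Flt1 (VEGFR1) binds Vegfa, Vegfb and Pgf, signals weakly and also exists as a secreted form that holds Vegfa away from Kdr. Flt4 (VEGFR3) is the receptor for Vegfc and later becomes a marker of lymphatic endothelium. The neuropilins Nrp1 and Nrp2 bind both VEGF ligands and class 3 semaphorins, and have no kinase of their own.

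Total counts per library ran from 11258493 to 13483294. Libraries 1 and 2 of a genotype, and libraries 3 and 4, differed by little more than sampling noise, with a mean chi-square per gene of 1.065 to 1.101 against 12.8 to 28.5 between these pairs of the same genotype. Each pair was therefore counted as 1 sample, A (libraries 1 and 2) and B (libraries 3 and 4), which leaves n = 2 per genotype. The labels do not call A and B separate cultures. The p-values therefore rest on a spread between A and B that may be technical. Ldb1 reads were present in all samples, at 105 and 113 counts per 1000000 reads (CPM) in the WT samples against 96.1 and 80.1 CPM in the KO samples (log2 fold change -0.31, SE 0.15, edgeR adjusted p = 0.410), and reads from outside a deleted part check nothing. Summed over 10 markers of early mesoderm and blood-forming progenitors, the samples stood at 122 CPM in WT A, 464 CPM in WT B, 120 CPM in KO A and 59.0 CPM in KO B. Over 12 endothelial markers, none of them at 0, the sums were 1042, 599.7, 662 and 318 CPM in the same order. Of 12 blood markers, 10 were tested and their sums were 197, 209.6, 28.4 and 21.1 CPM, with Hbb-bh1 at 0 in both KO samples. The sums over 8 pluripotency markers were 2020, 519.9, 959 and 1212 CPM, over 7 tested visceral endoderm markers 36.7, 40.9, 33.0 and 9.64 CPM, and over 6 ectoderm markers 931, 1259, 2062 and 2725 CPM. Most of the last sum was Krt8, Krt18 and Nes, while Pax6, Otx2 and Zic1 had log2 fold changes of 0.00, 0.05 and 0.05. In such bulk RNA, fewer cells of a type and less RNA per cell cannot be told apart.

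The letters just before the transcription start are shown for Kdr, which had the widest range over samples, for its sister receptor gene Flt1, and for Vegfa, the ligand with the highest mean level per length in both genotypes, though Vegfb was above it in KO A. They are the 250 bases upstream of the start in RefSeq, build GRCm38.p6, while the submitters' processing notes name mm9. All are on the minus strand and printed 5′ to 3′: chr5:75978456-75978705 for Kdr, chr5:147726012-147726261 for Flt1 and chr17:46032378-46032627 for Vegfa. Capitals mark CANNTG (the E-box read by Tal1 and its partners), GATAA (the core read by GATA factors), GGAAG (a core read by ETS factors) and TATAA, each on either strand.
Kdr: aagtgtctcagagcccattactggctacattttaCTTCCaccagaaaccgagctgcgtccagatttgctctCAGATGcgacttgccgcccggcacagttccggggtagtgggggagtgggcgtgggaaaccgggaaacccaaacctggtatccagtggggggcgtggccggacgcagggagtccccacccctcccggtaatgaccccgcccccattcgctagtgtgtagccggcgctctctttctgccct
Flt1: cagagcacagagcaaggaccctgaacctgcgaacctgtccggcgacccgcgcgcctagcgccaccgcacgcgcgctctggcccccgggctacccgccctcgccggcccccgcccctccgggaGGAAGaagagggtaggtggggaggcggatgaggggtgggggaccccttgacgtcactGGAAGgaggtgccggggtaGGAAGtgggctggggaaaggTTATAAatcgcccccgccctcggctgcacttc
Vegfa: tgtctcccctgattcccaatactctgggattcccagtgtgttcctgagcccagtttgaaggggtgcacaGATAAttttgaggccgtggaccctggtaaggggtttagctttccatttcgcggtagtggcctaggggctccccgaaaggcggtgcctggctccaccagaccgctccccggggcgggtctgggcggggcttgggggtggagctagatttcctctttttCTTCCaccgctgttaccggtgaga
The Kdr window held 1 CANNTG and 1 GGAAG match. The Flt1 window held 3 GGAAG matches and a TATAA match on each strand that overlap. The Vegfa window held 1 GATAA and 1 GGAAG match. All 9 genes had a RefSeq window (11 in all). Counting a match in any window of a gene, 5 genes had a CANNTG, 1 a GATAA, 5 a GGAAG and 1 a TATAA match. Vegfa held CANNTG only in its other window, which is not shown. Over all 32851 RefSeq windows, counted singly and not by gene, 66.2% held CANNTG, 22.6% GATAA, 64.1% GGAAG and 22.8% TATAA. CTG followed by GATAA after 7 or 8 further bases was in 0.746% and 0.502% of all windows and in 0 of the members' windows. Other spacings of E-box and GATA cores were not searched. A match is a description of these letters and not a site.

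Kdr was the receptor with the largest difference between genotypes and also with the widest spread inside a genotype. Its level was 439.5 and 443 CPM in the libraries of WT A, 604 and 610.0 CPM in WT B, 236 and 236 CPM in KO A, and 79.8 and 76.1 CPM in KO B. All 4 KO libraries lay below all 4 WT libraries, as for 14.3% of all genes tested, and KO B stood 3.00-fold below KO A. The log2 fold change of KO against WT was -1.73 (SE 0.59, 95% interval -3.34 to -0.12, edgeR adjusted p = 0.289), which does not pass the threshold of 0.05. Leaving out KO B reduced it to -1.15 and leaving out KO A took it to -2.73. Kdr is the gene of the sort, so its transcript level describes the sorted cells and is no independent outcome.

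The Flt1 levels of the genotypes overlapped. The libraries read 85.5 and 76.4 CPM in WT A, 61.0 and 66.3 CPM in WT B, 67.0 and 60.6 CPM in KO A, and 56.9 and 51.4 CPM in KO B. WT A was highest and KO B lowest, and WT B and KO A overlapped. The log2 fold change was -0.28 (SE 0.17, 95% interval -0.72 to 0.15, edgeR adjusted p = 0.522). With 1 sample left out it ran from -0.44 without WT B to -0.11 without WT A, and was -0.40 without KO A and -0.18 without KO B.

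Flt4 stood at 73.6 and 73.7 CPM in WT A, 51.7 and 50.6 CPM in WT B, 44.5 and 49.4 CPM in KO A, and 36.8 and 33.9 CPM in KO B. The KO libraries all lay below the WT libraries, as for 14.3% of all genes tested, though KO A came within a few CPM of WT B. The log2 fold change was -0.59 (SE 0.24, 95% interval -1.19 to 0.01, edgeR adjusted p = 0.329). Flt4 lies on chromosome 11, whose 890 genes with a mean log2 CPM above 3 had a median log2 fold change of -0.47 against 0.01 over all 11075 such genes. With each chromosome's median removed, the log2 fold change of Flt4 was -0.13 (adjusted p = 0.900). With 1 sample left out it ran from -0.83 without WT B to -0.31 without WT A. Without KO A it was -0.80 and without KO B -0.41. In both genotypes Flt1 and Flt4 were lower in sample B than in A, and the summed endothelial markers were lower in B as well. The part of those markers in the receptor levels was not tested.

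**Figure D1:**
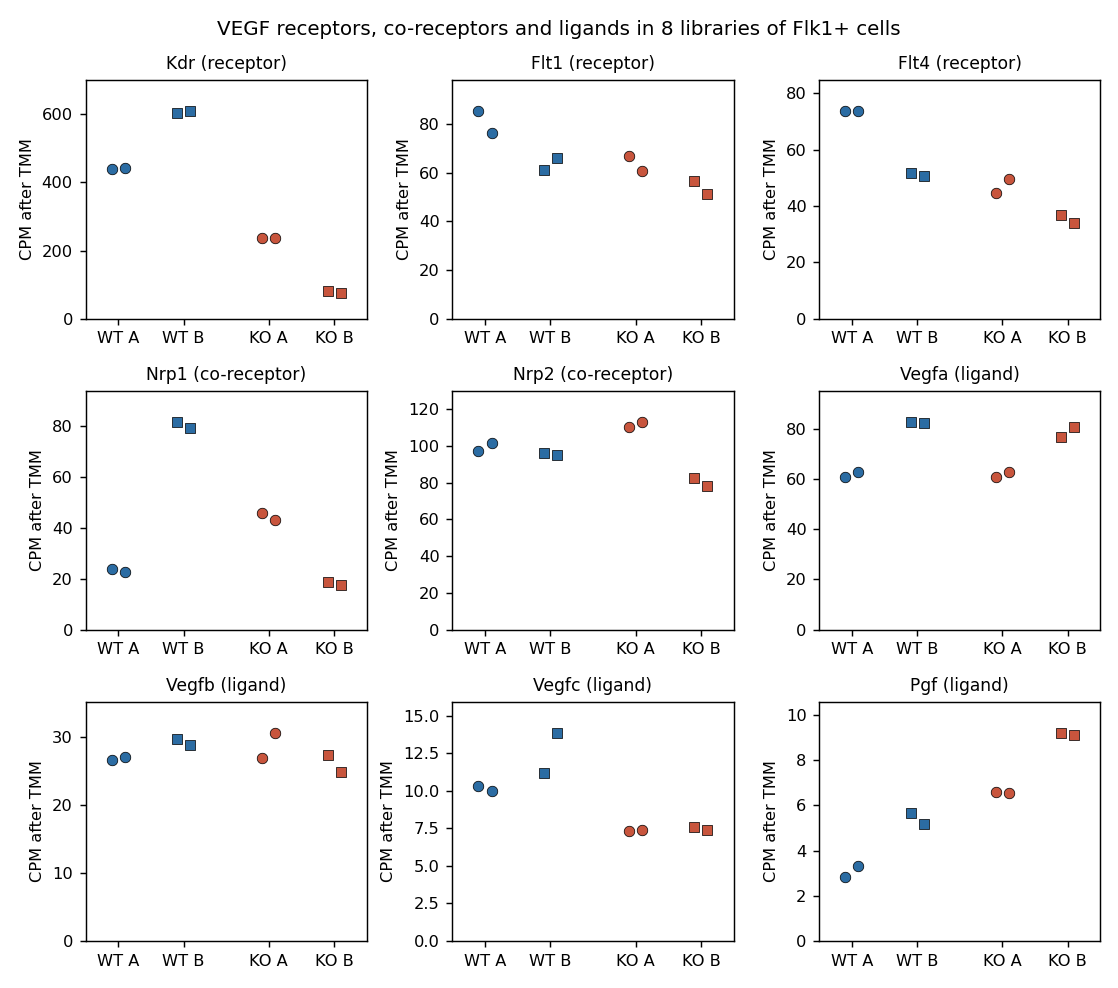
Normalised read count (CPM after TMM, y axis, linear from 0) of each of the 9 genes in 8 libraries, 2 libraries per sample, with WT in blue and KO in red, circles for sample A and squares for sample B. The 2 libraries of a sample lie close together, Kdr ranges from 604 and 610.0 CPM in WT B to 79.8 and 76.1 CPM in KO B, and Nrp1 is highest in WT B.

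Among the 3 receptors, Kdr held a smaller share of the transcripts in both KO samples than in either WT sample. Per kilobase of the transcript length given in the count table, Kdr made up 73.5% of the summed receptor level in WT A, 83.8% in WT B, 67.7% in KO A and 46.25% in KO B. Flt1 made up 12.7%, 8.28%, 17.2% and 30.2%, and Flt4 13.8%, 7.92%, 15.1% and 23.5%, in the same order. The ratio of Kdr to Flt1 per kilobase was 5.46 and 6.16 in the libraries of WT A, 10.5 and 9.78 in WT B, 3.74 and 4.14 in KO A, and 1.49 and 1.57 in KO B. The KO libraries all lay below the WT libraries, and B departed from A in opposite directions in WT and KO. Averaged on the log2 scale the ratio was 3.12-fold lower in KO (log2 difference -1.64, SD 0.79 between samples of a genotype, n = 2 each). The exact two-sided permutation p was 0.333, the smallest that 2 against 2 samples can give, so this test could not pass. Kdr, the gene of the sort, is part of the ratio, so the ratio is no independent outcome. With 1 sample left out the log2 difference ran from -2.32 to -0.96.

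**Figure D2:**
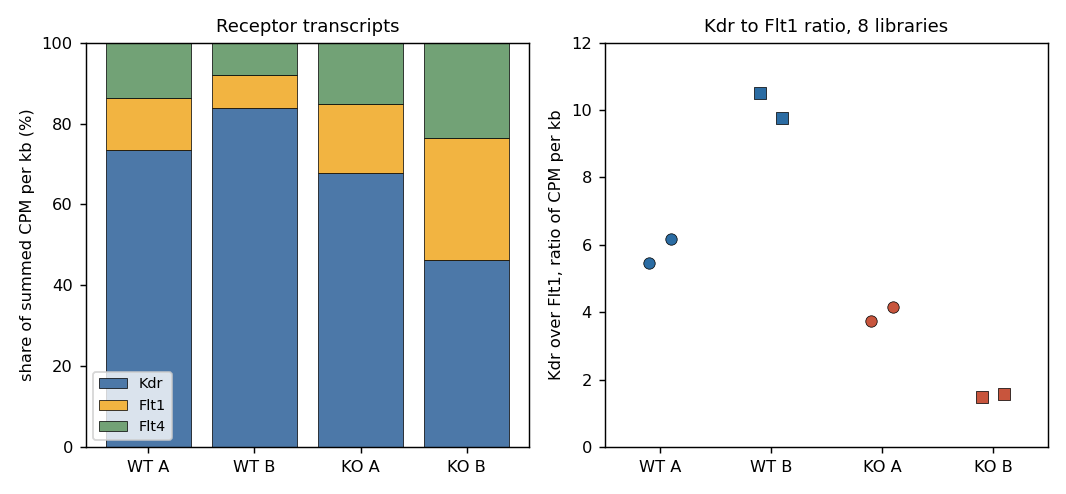
Left, share of the summed receptor level (CPM per kilobase of transcript, %) taken by Kdr, Flt1 and Flt4 in each sample; right, ratio of Kdr to Flt1 (CPM per kilobase) in each of the 8 libraries, WT in blue and KO in red. The Kdr share runs from 83.8% in WT B to 46.25% in KO B, and the ratio from 10.5 to 1.49.

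The co-receptors behaved unlike each other. Nrp1, which binds Vegfa together with Kdr, read 23.9 and 22.5 CPM in WT A, 81.7 and 79.3 CPM in WT B, 45.9 and 43.2 CPM in KO A, and 18.7 and 17.4 CPM in KO B. The genotypes overlapped: WT B was highest, KO A came next, and WT A lay close to KO B. WT B stood 3.47-fold above WT A, while KO B stood at 0.409 of KO A. With 1 sample on each side, no test of these differences can be made. The log2 fold change of KO against WT was -0.72 (SE 0.76, 95% interval -2.81 to 1.37, edgeR adjusted p = 0.761), and without WT B it turned to 0.44. The 10 early mesoderm and progenitor markers were also highest in WT B and lowest in KO B, at the sums given above. Summed over 8 cardiac mesoderm markers, the levels were 255 CPM in WT B against 37.9 CPM in WT A, 48.4 CPM in KO A and 35.4 CPM in KO B. The part of these cells in the Nrp1 levels was not tested.

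Nrp2, the neuropilin that also serves Vegfc and Flt4, was nearly level. It read 97.1 and 101.5 CPM in WT A, 96.3 and 95.4 CPM in WT B, 110.5 and 113 CPM in KO A, and 82.5 and 77.998 CPM in KO B. KO A was the highest sample and KO B the lowest, with both WT samples between them. The log2 fold change was -0.01 (SE 0.18, 95% interval -0.47 to 0.44, edgeR adjusted p = 0.983). Per kilobase Nrp1 stood at 0.436 of Nrp2 in WT A, 1.57 times Nrp2 in WT B, and 0.743 and 0.42 of Nrp2 in KO A and KO B, so WT B was the only sample of the 4 with more Nrp1 than Nrp2.

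Vegfa, the chief ligand of Kdr and Flt1, showed no difference between genotypes beyond the spread. It read 60.7 and 62.6 CPM in WT A, 82.6 and 82.1 CPM in WT B, 60.6 and 62.6 CPM in KO A, and 76.8 and 80.8 CPM in KO B. Samples A of the 2 genotypes coincided, and samples B lay 1.34-fold (WT) and 1.29-fold (KO) above them. The log2 fold change was -0.02 (SE 0.21, edgeR adjusted p = 0.9748), and its 95% interval of -0.54 to 0.49 leaves room for a change of that size either way.

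Vegfb, a ligand of Flt1 and Nrp1, had the narrowest range of the 9 genes, 1.11-fold from the lowest to the highest sample. Its libraries read 26.6 and 27.0 CPM in WT A, 29.7 and 28.9 CPM in WT B, 27.0 and 30.6 CPM in KO A, and 27.4 and 24.9 CPM in KO B. All 4 samples overlapped or nearly touched, and the log2 fold change was -0.02 (SE 0.15, 95% interval -0.40 to 0.36, edgeR adjusted p = 0.972).

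Vegfc and Pgf differed between genotypes in opposite directions, each with no overlap of libraries and neither past the test. Of all genes tested, 14.3% had all KO libraries below all WT libraries and 14.4% had them above. Vegfc, the ligand of Flt4, stood at 10.3 and 9.95 CPM in WT A, 11.1 and 13.8 CPM in WT B, 7.31 and 7.39 CPM in KO A, and 7.57 and 7.37 CPM in KO B. The 4 KO libraries were nearly the same and all below WT. The log2 fold change was -0.60 (SE 0.23, 95% interval -1.16 to -0.04, edgeR adjusted p = 0.291). Vegfc and Nrp1 lie on chromosome 8, whose 597 genes of that abundance had a median of 0.25, and with chromosome medians removed the log2 fold changes were -0.86 for Vegfc and -0.99 for Nrp1.

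Pgf (placental growth factor) binds Flt1 and not Kdr. It read 2.85 and 3.32 CPM in WT A, 5.65 and 5.18 CPM in WT B, 6.61 and 6.53 CPM in KO A, and 9.21 and 9.14 CPM in KO B. The KO libraries all lay above the WT libraries, and within each genotype B was above A. Depth was lowest here, with 33 reads in the first WT library and 119 in the last KO library. The log2 fold change was 0.90 (SE 0.37, 95% interval -0.02 to 1.82, edgeR adjusted p = 0.333). With 1 sample left out it ran from 1.37 without WT B to 0.54 without WT A. Without KO A it was 1.13 and without KO B 0.63. Summed over 10 smooth muscle and mesenchyme markers, all of them with a log2 fold change above 0, the levels were 1247 CPM in WT A, 1745 CPM in WT B, 2891 CPM in KO A and 4925 CPM in KO B, the same order of samples as for Pgf. The ectoderm sum given above, mostly Krt8, Krt18 and Nes, had this order too. The part of either set of markers in the Pgf level was not tested. Vegfd, the remaining ligand of Flt4 and not one of the 9 genes, was named after its values were seen and stood at 2.90, 1.96, 1.86 and 2.07 CPM in WT A, WT B, KO A and KO B (log2 fold change -0.31, SE 0.34).

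As a group, 0 of the 9 genes passed an edgeR adjusted p of 0.05, where 0.185% of all 16785 genes tested did (0.125% lower and 0.0596% higher in KO). By DESeq2 0 passed as well, where 7.33% of genes did, and by limma-voom 0. At an unadjusted edgeR p under 0.05 there were 2 of 9 (Kdr and Vegfc, both lower), against 15.5% of all genes (7.86% lower and 7.61% higher). All KO libraries lay below all WT libraries for 3 of 9, against 14.3% of all genes, and above for 1 of 9, against 14.4%. Shares of 9 genes are too coarse to set apart from these backgrounds. The median log2 fold change of the members was -0.28, beside -0.01 over all genes tested, with 8 below 0 and Pgf above.

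**Figure D3:**
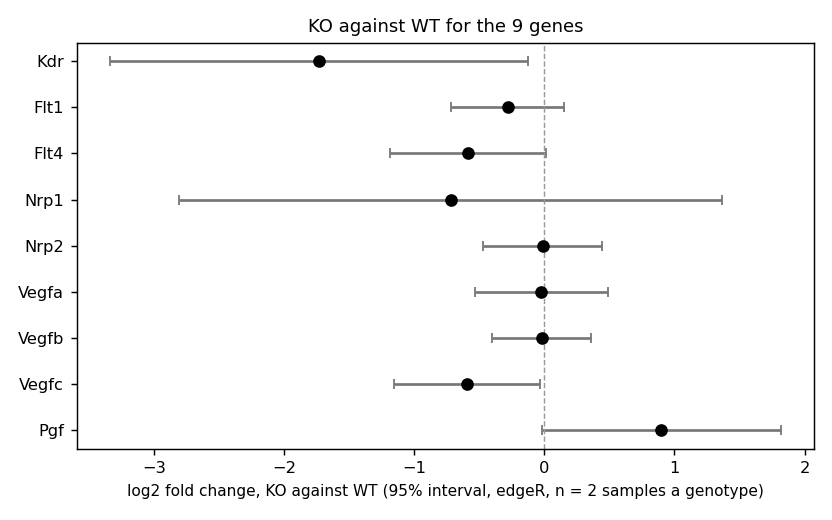
Log2 fold change of KO against WT (x axis) for each gene, with the 95% interval of the edgeR fit (n = 2 samples per genotype). The intervals of Kdr (-3.34 to -0.12) and Vegfc (-1.16 to -0.04) end below 0, those of Flt4 and Pgf end close to 0, and Nrp1 has the widest (-2.81 to 1.37).

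Between genes, levels were compared per kilobase of transcript (the sources used here do not define that length). In WT the order of levels was Kdr at 88.1 ± 19.7 CPM per kb (SD, n = 2), Vegfa at 24.7 ± 5.04, Vegfb at 21.8 ± 1.36, Nrp2 at 14.4 ± 0.362, Nrp1 at 14.3 ± 11.2, Flt4 at 11.8 ± 3.00, Flt1 at 11.4 ± 1.93, Vegfc at 4.60 ± 0.688 and Pgf at 2.68 ± 1.04. From Nrp2 down to Flt1, neighbours did not differ beyond their spread, nor did Vegfa and Vegfb. In KO, the mean of Kdr at 26.5 ± 18.8 CPM per kb lay near Vegfa at 24.3 ± 4.36 and Vegfb at 21.5 ± 1.34. The samples differed: Kdr was above both in KO A (39.8 against 21.2 and 22.5) and below Vegfa and Vegfb in KO B (13.3 against 27.4 and 20.6). The KO means were 14.3 ± 3.23 for Nrp2, 9.40 ± 1.03 for Flt1, 8.68 ± 5.14 for Nrp1 and 7.82 ± 1.52 for Flt4. Pgf at 5.00 ± 1.20 CPM per kb lay above Vegfc at 3.04 ± 0.0542 in KO, the reverse of WT, and the sample values of these 2 genes did not overlap within either genotype. Of the summed level of the 4 ligands per kilobase, Pgf made up 4.04% and 5.73% in WT A and B and 8.17% and 10.3% in KO A and B, while Vegfc made up 8.56% and 8.54% and then 5.90% and 5.41%. Vegfa held 41.7% to 48.1% in every sample.

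The larger difference between samples A and B of a genotype exceeded in size the difference between genotypes for Flt1, Nrp1, Nrp2, Vegfa and Vegfb. It stayed below that difference for Kdr, Flt4, Vegfc and Pgf. Kdr (log2 difference of B minus A 0.46 in WT and -1.58 in KO) and Nrp1 (1.79 and -1.29) went up in WT B and down in KO B. Flt1 (-0.35 and -0.22) and Flt4 (-0.53 and -0.40) were lower in B in both genotypes, and Vegfa (0.42 and 0.37) and Pgf (0.81 and 0.49) were higher in B in both. Over all genes tested the median size of this difference was 0.25 in WT and 0.21 in KO on the log2 scale. At a bound of 2-fold, WT B was above WT A for 1 of the 9 genes (Nrp1) and below for 0, where 4.01% and 6.19% of all genes were. KO B was above KO A for 0 of 9 and below for 2 (Kdr and Nrp1), where 1.75% and 2.66% of all genes were. These are values of single samples, with no test.

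**Figure D4:**
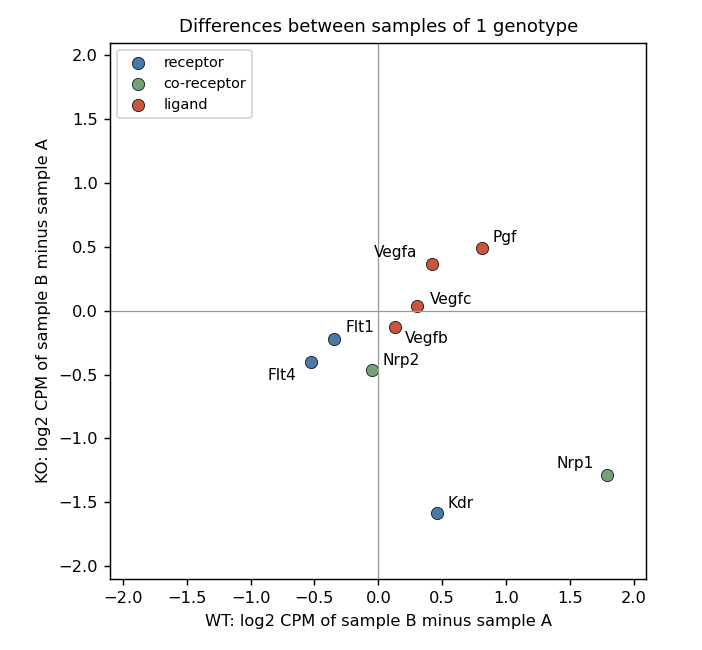
Log2 CPM of sample B minus sample A in WT (x axis) and in KO (y axis) for the 9 genes, coloured by role. Kdr and Nrp1 lie at the lower right, with positive values in WT (0.46 and 1.79) and negative values in KO (-1.58 and -1.29), while Vegfa and Pgf are positive in both.

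The genes with a profile nearest to each of Kdr, Flt1 and Vegfa were sought among 11336 other named genes with a mean of at least 5 CPM, by the root mean square distance of centred log2 CPM over the 4 samples. Nearest to Kdr was Klhl6, at a distance of 0.181, with 67.5, 90.9, 27.3 and 9.44 CPM in WT A, WT B, KO A and KO B. Zfp711 followed at 0.220, then Sox17, a transcription factor of endoderm and arterial endothelium, at 0.253, Cbfa2t3, a corepressor found in complexes with Tal1 and Ldb1, at 0.254, and Gvin1 at 0.264. The same 5 genes were nearest when 8 libraries were used. Nearest to Flt1 were Ndufaf2, Snrk, Nphp4, Prkch and Mtdh, at distances of 0.0177 to 0.0314. Nearest to Vegfa were Dpm1, Zfp691, Fip1l1, Cst3 and Higd2a, at 0.00477 to 0.0309. Over 8 libraries, 2 of the 5 were shared for Flt1 and 2 for Vegfa. A profile has 4 values, so many genes lie near a nearly level one, and these distances describe the libraries only.

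The wider pathway was described by 7 lists of genes, 126 of which were tested. By edgeR 0 passed over all genes tested. At an unadjusted edgeR p under 0.05 there were 43 (34.1%, 16 lower and 27 higher in KO), against 15.5% of all genes (7.86% lower and 7.61% higher), and DESeq2 passed 24 of the 126, 10 lower and 14 higher, against 7.33% of all genes by DESeq2. The median log2 fold change of the 126 genes was 0.04. The genes named from the lists did not pass the edgeR test. The higher levels in KO came beside the higher sums of smooth muscle and mesenchyme markers and of ectoderm markers given above. The lower levels came beside lower values of blood markers (10 of 10 below 0, median log2 fold change -4.48), early mesoderm and progenitor markers (10 of 10, -1.53) and endothelial markers (10 of 12, -0.67). The progenitor sum stood out in WT B (464 CPM), with WT A and KO A alike at 122 and 120 CPM. The endothelial sum of KO A (662 CPM) lay above that of WT B (599.7 CPM). The part of the cells marked by these lists was not tested.

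Of 46 genes that carry the receptor signal inside the cell, 0 passed, 3 lower and 9 higher had an unadjusted edgeR p under 0.05, and the median log2 fold change was 0.09. Cdc42, a GTPase of cell migration, had a log2 fold change of 0.33 (SE 0.14), and the adaptor Gab1 0.77 (SE 0.37). Gab1 lies on chromosome 8, whose median was 0.25. Prkca, a protein kinase C that acts below Plcg1, had 10.5 and 8.87 CPM in the WT samples against 3.63 and 4.68 CPM in the KO samples (-1.22, SE 0.27, edgeR adjusted p = 0.128), and it lies on chromosome 11. Nfatc4, a transcription factor activated by calcineurin, had 0.70 (SE 0.18). DESeq2 passed 1 lower and 4 higher.

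Of 15 genes of receptor trafficking and partner proteins, 0 passed, 4 lower and 3 higher had an unadjusted edgeR p under 0.05, and the median was -0.03. Itgb3, an integrin chain that associates with Kdr in endothelial cells, had 60.3 and 41.0 CPM in the WT samples against 14.3 and 19.3 CPM in the KO samples (log2 fold change -1.59, SE 0.26, edgeR adjusted p = 0.105). The caveolae protein gene Cav1 had -0.98 (SE 0.23), the endocytic adaptor Epn2 -0.69 (SE 0.15) and the ubiquitin ligase Nedd4 0.31 (SE 0.17). Itgb3 and Epn2 lie on chromosome 11. DESeq2 passed 4 lower and 1 higher.

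The list of VEGF ligand processing and storage held 12 tested genes, with the ligand gene Vegfd itself counted among them. Of these, 0 passed, 0 lower and 3 higher had an unadjusted edgeR p under 0.05, and the median was 0.17. Mmp9, a protease that frees matrix-bound Vegfa, had 12.5 and 11.02 CPM in the WT samples against 37.5 and 47.2 CPM in the KO samples (log2 fold change 1.85, SE 0.19, edgeR adjusted p = 0.0526). Hspg2, which encodes the heparan sulphate proteoglycan perlecan, had 666 and 590.0 CPM in the WT samples against 1206 and 1096 CPM in the KO samples (0.87, SE 0.13, edgeR adjusted p = 0.1004). Hs2st1, a heparan sulphate sulphotransferase, had 0.49 (SE 0.15), and the protease Mmp2 -0.07 (SE 0.35). DESeq2 passed 2 higher, Mmp9 and Hspg2.

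Of 10 hypoxia regulators of VEGF ligand transcription, 0 passed, 0 lower and 2 higher had an unadjusted edgeR p under 0.05, and the median was 0.28. Hif1a, the hypoxia-inducible factor that activates Vegfa, had 148 and 148 CPM in the WT samples against 197 and 197 CPM in the KO samples (log2 fold change 0.41, SE 0.12, edgeR adjusted p = 0.189). Its inhibitor Hif1an had 0.29 (SE 0.13), Hif3a 0.59 (SE 0.20), and Egln1, a prolyl hydroxylase that marks Hif1a for decay, 0.36 (SE 0.17). Egln1 lies on chromosome 8, whose median was 0.25. DESeq2 passed 0.

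Of 11 class 3 semaphorins and plexins, the other ligands and partners of neuropilins, 0 passed, 1 lower and 5 higher had an unadjusted edgeR p under 0.05, and the median was -0.25. Sema3b had 14.2 and 17.4 CPM in the WT samples against 48.7 and 65.1 CPM in the KO samples (log2 fold change 1.85, SE 0.21, edgeR adjusted p = 0.0632), and Sema3c had 1.19 (SE 0.23). The receptor genes Plxna1 and Plxnd1 had 0.53 (SE 0.14) and -0.25 (SE 0.51), and Plxnd1 was, like Flt1 and Flt4, lower in sample B in both genotypes (320 and 178 CPM in WT, 289.6 and 129 CPM in KO). DESeq2 passed 0 lower and 4 higher.

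Of 18 transcription factors known to act on Kdr or Flt1, 0 passed, 8 lower and 0 higher had an unadjusted edgeR p under 0.05, 16 lay below 0, and the median was -1.06. The marker lists also hold 4 of the 18: Etv2 and Tal1 (progenitor), Sox18 (endothelial) and Sox17 (visceral endoderm). Gata2 had 23.2 and 19.2 CPM in the WT samples against 8.99 and 7.22 CPM in the KO samples (log2 fold change -1.39, SE 0.21, edgeR adjusted p = 0.1004), and the homeobox factor Hhex had -1.33 (SE 0.26). Of the most abundant, Ets1 had -0.48 (SE 0.16) and Ets2 0.03 (SE 0.18). Etv2, an ETS factor needed for Kdr-positive blood and endothelial progenitors and named after its values were seen, stood at 6.36, 18.5, 6.31 and 4.02 CPM in WT A, WT B, KO A and KO B (-1.27, SE 0.58). DESeq2 passed 5 lower and 0 higher.

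Of 15 genes that VEGF induces in endothelial cells, 0 passed, 1 lower and 5 higher had an unadjusted edgeR p under 0.05, and the median was 0.08. Plaur, the urokinase receptor gene, had 17.8 and 12.4 CPM in the WT samples against 38.7 and 49.3 CPM in the KO samples (log2 fold change 1.54, SE 0.24, edgeR adjusted p = 0.1004). The phosphatase Dusp5 had 0.88 (SE 0.25), the matrix protein Ccn1 0.89 (SE 0.32) and the immediate early gene Egr1 0.11 (SE 0.64). DESeq2 passed 0 lower and 3 higher.

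**Figure D5:**
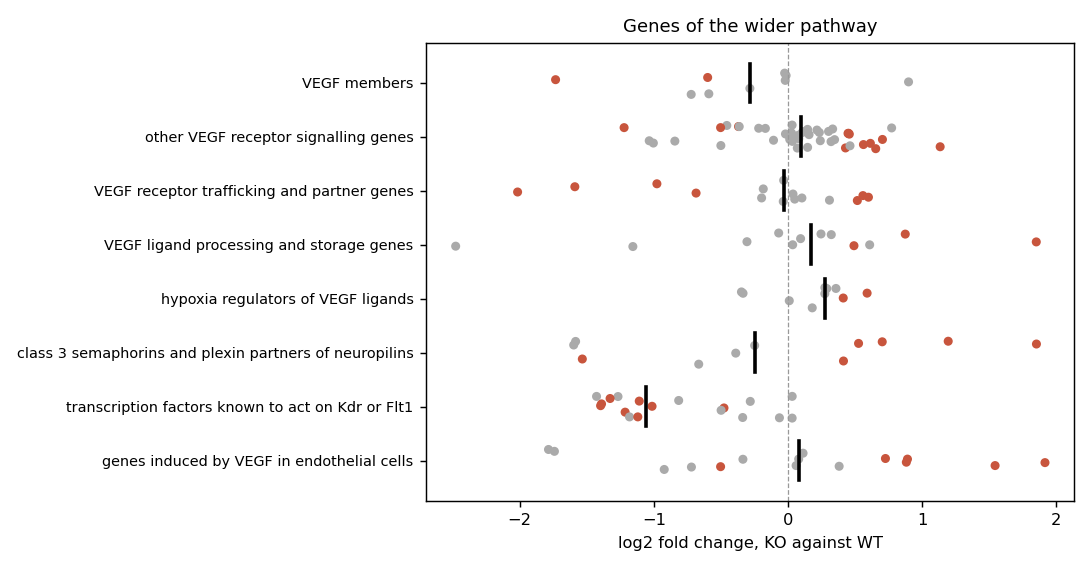
Log2 fold change of KO against WT (x axis) for the 9 VEGF genes and for each tested gene of the 7 lists, 1 point per gene, red where the unadjusted edgeR p is under 0.05, with a black bar at the median of each list. The transcription factors have the lowest median (-1.06), and no point passed the edgeR test after adjustment over all genes.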

How the data were processed

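The RNA-seq values are raw read counts per Ensembl gene, as the authors deposited them, per the file headers, with a transcript length for each gene. The submitters' processing notes name mm9 and DESeq. The aligner, counter, strand setting and annotation release were not given in the sources used here. Symbols were paired with 20362 of 21868 genes. RefSeq tables of GRCm38.p6 gave chromosomes and promoter letters.

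Near-identical libraries were summed to 2 samples per genotype. After filterByExpr and TMM scaling, 16785 genes entered the robust quasi-likelihood test of edgeR 4.0.16 in R 4.3.3, with Benjamini-Hochberg adjustment over all of them and a threshold of 0.05. Intervals use the fit's degrees of freedom. DESeq2 1.42.0 and limma 3.58.1 were alternatives. The script was tested on simulated data. Figures were drawn with matplotlib 3.10.9. Named genes of a list were those past the test, the 2 most abundant others and the 2 with the smallest p at a mean of at least 5 CPM. The members and lists were chosen with earlier results of these data known. Only 2 samples per genotype limit the precision. The Ldb1 peak list, on mm9, was not used here, because no mm9 annotation was at hand to place it beside these genes.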

Additional observations from a re-analysis of the deposited data

How the results depend on the processing

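The count of genes past the edgeR test was 31, and 1159 by DESeq2, 3 by limma-voom, 151 without a filter on low counts, 5 with a filter of 1 CPM in 2 samples, 3860 with 8 libraries fitted separately, 3410 with these and the replicate number as a block, and 5 with the sample letter as a replicate block. It ran from 22 to 40 with 1 library left out, and from 0 to 1674 with 1 sample left out: 1537 without WT A, 1674 without WT B, and 0 without KO A or KO B, with 1704 and 1106 genes at an edgeR p under 0.05 before adjustment. A lone sample was assumed to vary like the other group. Of the 9 VEGF genes, 0 passed, and 0 passed with 1 library left out. With 1 sample left out a genotype rests on a lone sample, so calls among the 9 are not read from those fits. Without WT B, Flt4 (-0.83) and Pgf (1.37) lay further from 0 than in any other fit, so they depend on that sample. With 8 libraries fitted separately 4 passed (Kdr, Flt4, Vegfc and Pgf), where 3860 of 15589 genes tested did. With the replicate number as a block 5 passed (Flt1 too), where 3410 of 15589 did. Both fits count near-identical libraries as replicates. Under the sample letter as a block 0 passed. The labels do not say that equal numbers pair the genotypes, and over 11075 genes the differences B minus A of WT and KO had r = -0.08. Of 126 pathway genes, 0 passed by edgeR and 24 by DESeq2, which passed 7.33% of all genes. Kdr, Flt1, Flt4, Vegfc and Pgf kept their direction under all 23 alternatives. For Kdr, Flt4, Vegfc and Pgf the libraries of the genotypes did not overlap, so leaving out a library or sample could hardly reverse it. The other near-level or overlapping genes changed sign with 1 library or sample left out: Nrp1 ran from -1.50 to 0.44, Nrp2 from -0.26 to 0.20, Vegfa from -0.23 to 0.21 and Vegfb from -0.0897 to 0.0493. The cause of these changes was not tested. Under other scalings of the same counts, the median of all genes moved by less than 0.1.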
